A study of Homo sapiens with 6 samples.

Results

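Collagen chains and the enzymes that modify, fold and crosslink them were followed in A549 cells, an established human lung adenocarcinoma line, after knockdown of S100A4. The members were the 42 genes whose symbol in the deposited annotation is that of a collagen chain, together with 3 prolyl 4-hydroxylase subunits, 3 lysyl hydroxylases, 5 lysyl oxidases and the chaperone SERPINH1. These 54 genes were measured among 25141 named genes, and each gene is represented by a single transcript cluster, which is the probes placed along its transcripts. One group of 3 arrays came from cells stably expressing a lentiviral control shRNA and the other group of 3 arrays from cells stably expressing a lentiviral shRNA that targets S100A4. Both lines were grown in DMEM/F12 with 10% serum to about 70% confluence and were fed the day before RNA was taken. The labels give both 3 days and 2 days of culture. They name 1 shRNA per group, so a second shRNA or a second line of either kind was not part of the comparison, and p-values reflect only the spread between arrays labelled as biological replicates.

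Collagens are secreted proteins made of 3 chains wound into a triple helix. Prolyl 4-hydroxylases in the endoplasmic reticulum hydroxylate proline and so make the helix stable at body temperature, lysyl hydroxylases modify lysines that later carry sugars and crosslinks, and the chaperone HSP47, product of SERPINH1, holds the folded helix. Outside the cell, lysyl oxidases crosslink the chains. Fibril-forming collagens give tissue its tensile strength, type IV collagen forms the sheet of the basement membrane under epithelia, and both are matrix through which lung tumour cells move.

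S100A4, a calcium-binding protein associated with metastasis and the target here, read 7.57, 7.12 and 7.18 on the control arrays, against 5.74, 5.51 and 5.44 after knockdown (log2 signal). The groups did not overlap, and the fall was 3.32-fold (log2 fold -1.73, SE 0.13, limma adjusted p = 0.000453). S100A4 was above the 95th percentile of the array's negative control probe sets on 2 control arrays only. This fold in signal therefore does not bound the fold in RNA. The epithelial keratins of the line were prominent, with KRT8 at 15.4 ± 0.04 and KRT18 at 15.3 ± 0.05 on the control arrays (SD, n = 3), and both fell with S100A4 shRNA (log2 folds -0.44 and -0.58, limma adjusted p = 0.0313 and 0.00478). The 6 epithelial markers did not move one way: CDH1 and KRT19 rose (log2 folds 0.97 and 0.42, limma adjusted p = 0.0011 and 0.0148), and EPCAM and KRT7 were not called (log2 folds 0.21 and -0.078). Of 8 fibroblast markers, 0 reached the 95th percentile of the array's 646 negative control probe sets on any array, and the same held for 5 endothelial, 5 leukocyte and 4 smooth muscle markers. It also held for 2 of the 6 epithelial markers, EPCAM and KRT19. The summed linear signal of the fibroblast markers was 153.5 to 161.7 with control shRNA and 140.4 to 149.1 with S100A4 shRNA, and 1 of the 8, THY1, was called (log2 fold -0.31). In such bulk samples, fewer cells of a kind and less RNA per cell cannot be told apart.

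Knockdown of S100A4 went with changes of a few members in both directions. P4HA3, a prolyl 4-hydroxylase subunit, rose 4.30-fold, the lysyl oxidase LOXL2 rose 1.72-fold, and the fibril-forming chains COL1A1, COL5A1 and COL5A2 rose with log2 folds of 0.64, 0.64 and 0.59. P4HA2 rose 1.26-fold. COL12A1 fell 1.84-fold, the basement membrane chain COL4A2 fell 1.54-fold and COL11A1 fell 1.30-fold. Calls rest on limma and a threshold of 0.05 for the p adjusted by Benjamini and Hochberg's method across the 25141 genes. On that basis 9 of 54 members were called, 6 higher and 3 lower, a share of 16.7% against 11.6% of all genes. Among all genes 6.08% were called higher and 5.49% lower. The median log2 fold of the members was -0.032 and that of all genes -0.034. Of the 54 members, 7 were called with at least a 1.5-fold change, against 760 of 25141 genes (3.02%). That share was larger among the members, and the difference was not tested. The groups did not overlap for 20 members (37%), against 32.8% of all genes, so neither the median nor the overlap set the family apart from the array as a whole.

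**Figure D1:**
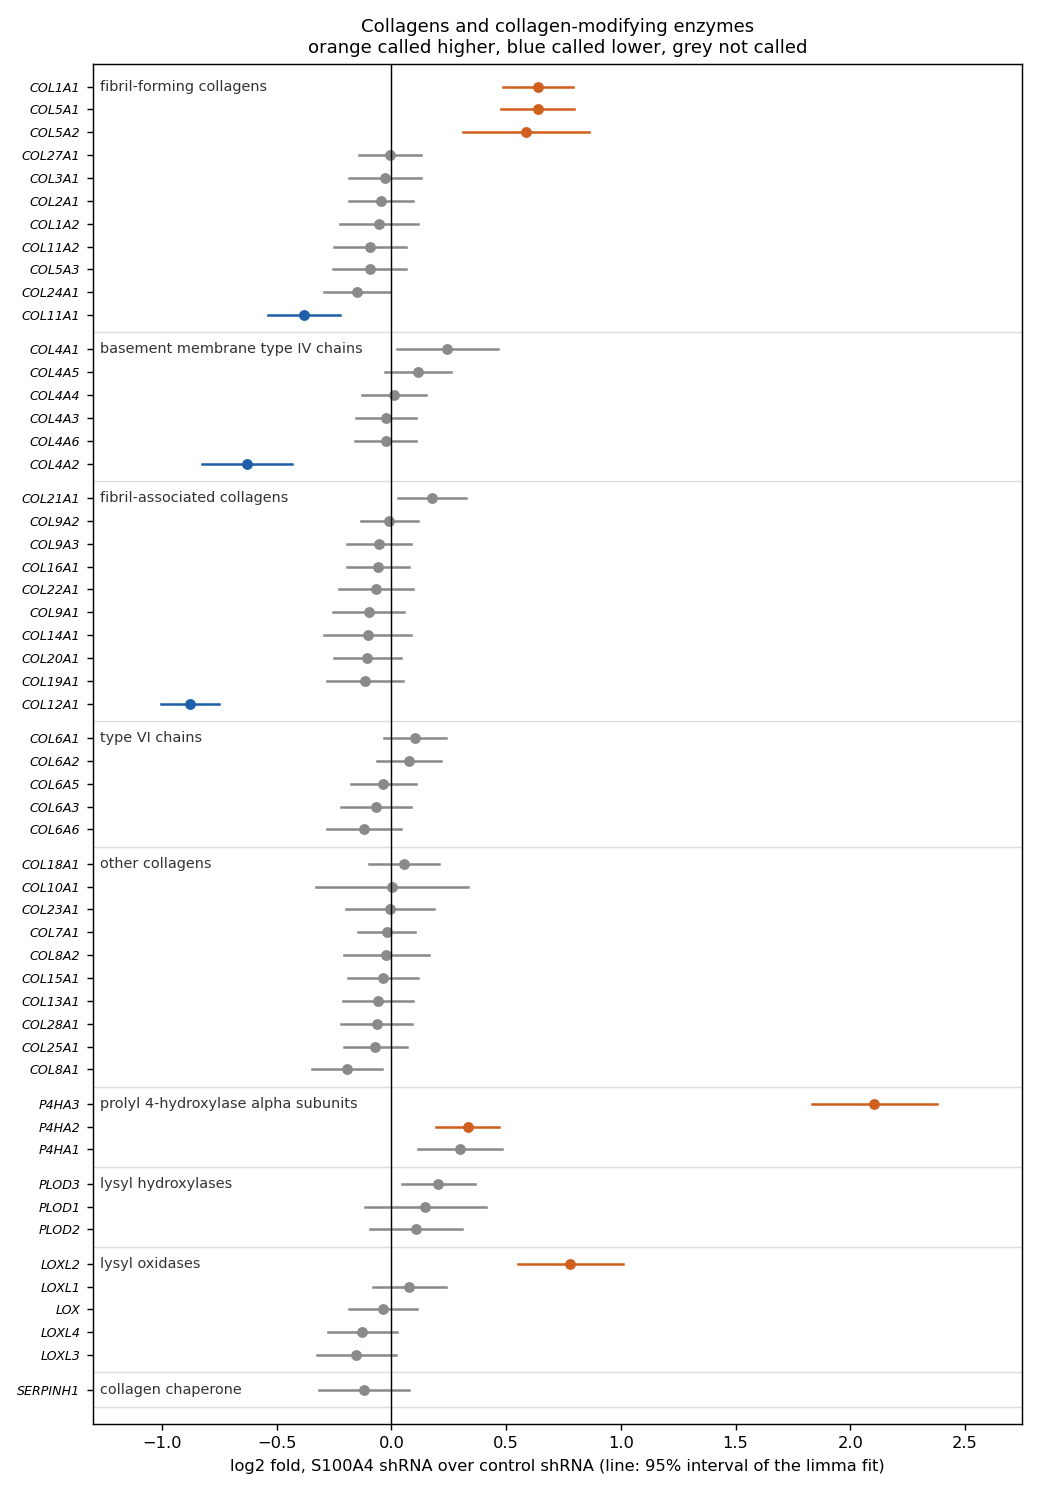
Log2 fold of S100A4 shRNA over control shRNA (x axis) for each of the 54 members, grouped by role, with points for the fold and lines for the 95% interval of the limma fit. The 6 members called higher are orange, the 3 called lower are blue and the 45 not called are grey, and the interval of P4HA3, from 1.83 to 2.38, is the farthest from 0.

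Most of the chains gave little signal in this line. The median of the negative control probe sets, which read introns of housekeeping genes, was 4.18 to 4.27 on each array, and their 95th percentile was 7.13 to 7.36. Of the 54 members, 31 had a mean less than 1 log2 unit above the negative control median, and 27 of these were collagen chains. Only COL5A2 among the 42 chains, and LOXL2, P4HA1, PLOD1 and PLOD2 among the enzymes, read above the 95th percentile on all 6 arrays. All 9 called members had a mean over the 6 arrays above the median gene, and none of the 33 members below it was called. Of the called members, COL1A1, COL5A1, COL11A1 and COL12A1 stayed below the 95th percentile on every array. COL4A2 was above it on 2 control arrays only and P4HA2 on 2 S100A4 shRNA arrays only. When only the upper 50% of genes by mean were fitted, 28.2% of these were called, against 11.6% in the fit on all genes. Signals of different genes depend on their probes, so levels are set here only against the negative controls and not against each other. The interval of every uncalled member, 45 of 45, lay within 1.5-fold in either direction, but for members close to the negative controls a small fold in signal does not bound the fold in RNA.

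**Figure D2:**
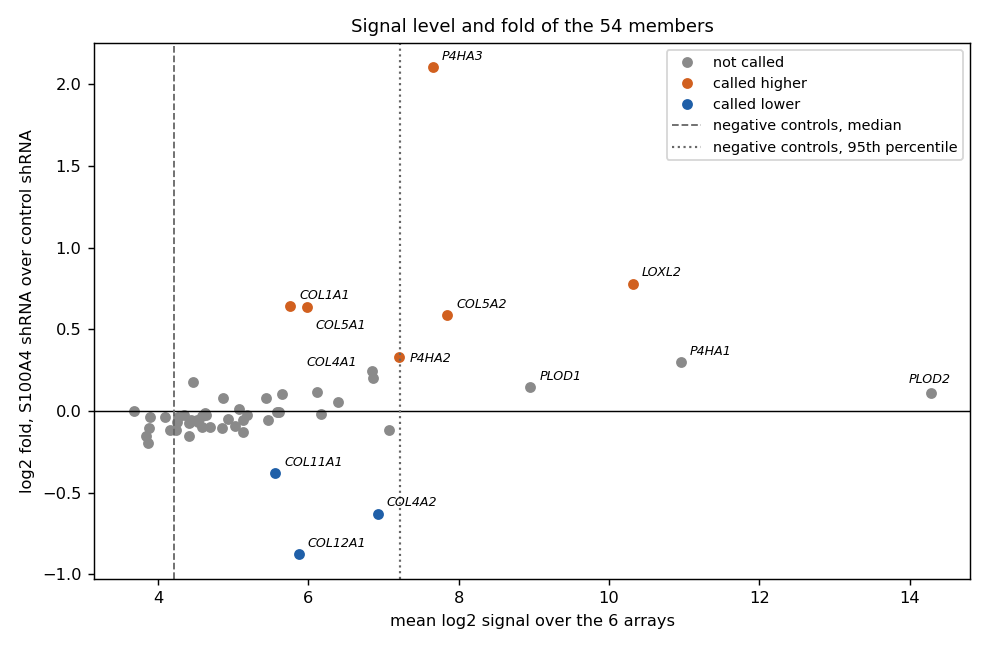
Mean log2 signal over the 6 arrays (x axis) against the log2 fold of S100A4 shRNA over control shRNA (y axis), 1 point per member. The dashed and dotted lines mark the median and the 95th percentile of the negative controls, averaged over the arrays; most of the grey uncalled points lie between them, while PLOD2 at 14.3, P4HA1 at 10.96 and LOXL2 at 10.3 lie far to the right.

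Among the fibril-forming chains, 3 of 11 rose, 1 fell and 7 were not called, with a median log2 fold of -0.047. The share called was 36.4%, beside 11.6% of all genes. Of the 11 chains, 10 stayed below the 95th percentile of the negative controls on every array. COL1A1 encodes the alpha 1 chain of type I collagen, the main fibril collagen of connective tissue. It read 5.42, 5.45 and 5.45 on the control arrays, against 6.18, 6.04 and 6.01 after S100A4 knockdown. Every S100A4 shRNA array lay above every control array (log2 fold 0.64, SE 0.07, limma adjusted p = 0.00137). COL1A2, the partner chain in the type I trimer, was at 4.55 ± 0.05 and 4.50 ± 0.11 (SD, n = 3 each), close to the negative controls in both groups, and was not called (log2 fold -0.053, 95% interval -0.22 to 0.12). With COL1A2 this close to the negative controls, the balance of the type I chains could not be measured. COL3A1, the type III chain that often lies in the same fibrils, was likewise near the negative controls at 4.60 ± 0.07 and 4.57 ± 0.07 (SD, n = 3 each) and was not called.

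Type V collagen nucleates type I fibrils and sets their diameter, and its major chains rose together. COL5A1 read 5.61, 5.68 and 5.68 on the control arrays, against 6.28, 6.21 and 6.39 after S100A4 knockdown. The groups were well apart (log2 fold 0.64, SE 0.07, limma adjusted p = 0.00154). COL5A2, the partner of COL5A1 in the type V trimer, read 7.64, 7.39 and 7.63 on the control arrays, against 8.34, 7.93 and 8.15 after S100A4 knockdown. Replicate 2 was the lowest array in both groups, and the groups did not overlap (log2 fold 0.59, SE 0.12, limma adjusted p = 0.0187). The call of COL5A2 was lost without control replicate 2 or 3 or S100A4 shRNA replicate 1 or 3 (limma adjusted p from 0.0508 to 0.0629, log2 folds 0.49 to 0.63). The within-array difference of COL5A1 minus COL5A2 changed by 0.049, less than its SD of 0.17 and 0.18 in the groups (exact permutation p = 1). The third type V chain, COL5A3, was not called (log2 fold -0.095).

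COL11A1, a chain of the cartilage-type fibril collagen XI that is also made in many carcinomas, moved the other way. It read 5.80, 5.81 and 5.64 on the control arrays, against 5.38, 5.34 and 5.38 after S100A4 knockdown. All 3 knockdown arrays lay below the lowest control array (log2 fold -0.38, SE 0.07, limma adjusted p = 0.0111). COL2A1, COL11A2, COL24A1 and COL27A1, the other fibril-forming chains of the list, had log2 folds between -0.15 and -0.0057 and were not called. COL11A2 had 7 clusters on the array, 6 of them for alternative haplotypes of the same locus, and their log2 folds lay between -0.11 and -0.089.

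**Figure D3:**
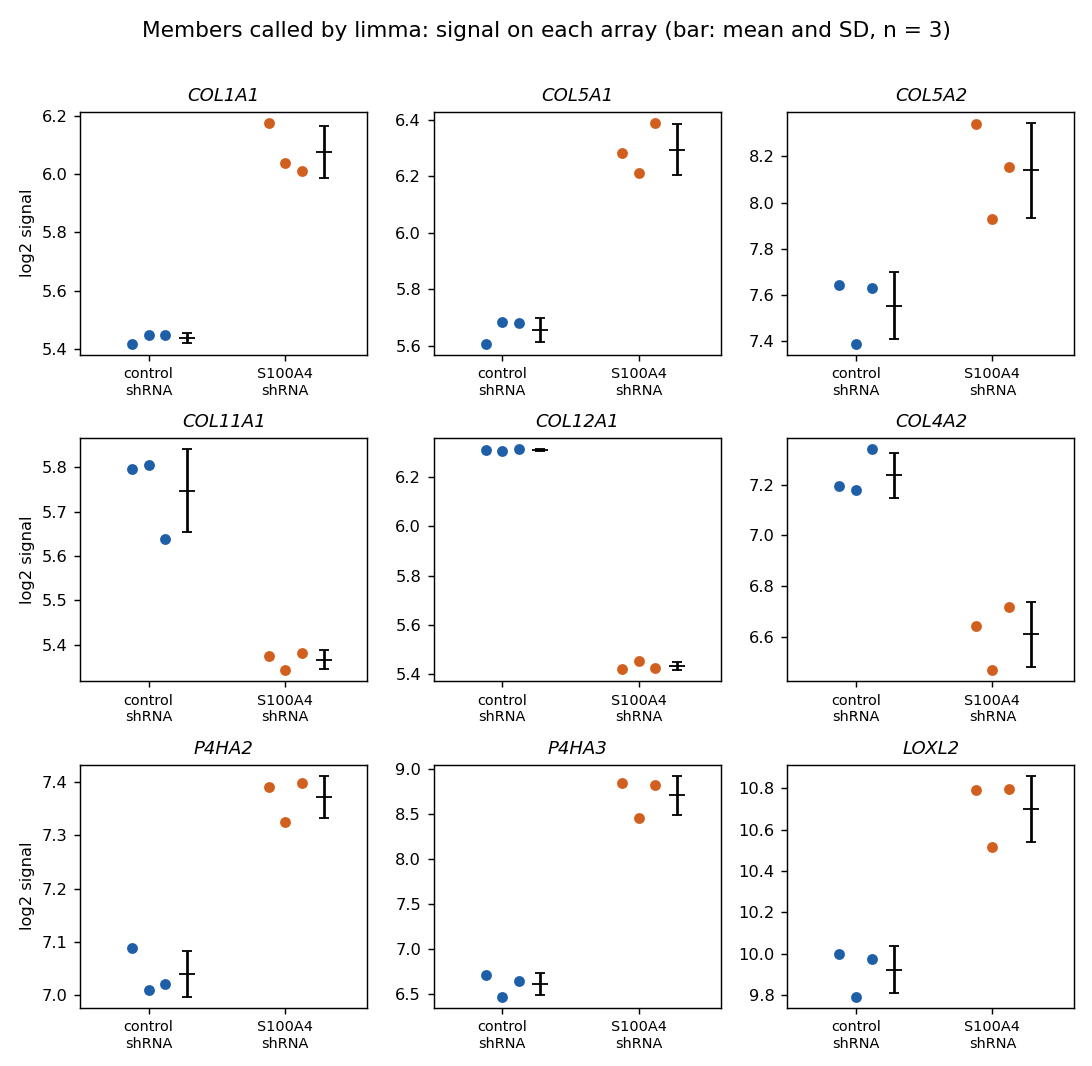
Log2 signal (y axis) on each array for the 9 called members, with blue points for control shRNA, orange points for S100A4 shRNA, replicates 1 to 3 from left to right, and bars for the mean and SD (n = 3). The axes differ between panels; the groups do not overlap in any of the 9 panels, and the 3 control points of COL12A1 all lie at 6.31.

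Fibril-associated collagens bind to the surface of fibrils and link them to other matrix. Of 10 such chains, 1 fell, 0 rose and 9 were not called, with a median log2 fold of -0.083. The share called was 10%, beside 11.6% of all genes. All 10 stayed below the 95th percentile of the negative controls on every array. COL12A1, which decorates type I fibrils, read 6.31, 6.31 and 6.31 on the control arrays, against 5.42, 5.45 and 5.42 after S100A4 knockdown. Its control arrays were the closest together among the called members and its fall the largest of the 54 (log2 fold -0.88, SE 0.05, limma adjusted p = 0.0002). The call was kept when any array was left out, with log2 folds from -0.89 to -0.87. In the authors' deposited table the ratio for COL12A1 was 0.673. COL14A1, the close relative of COL12A1, read 3.93 ± 0.10 and 3.82 ± 0.11 (SD, n = 3 each), below the negative control median, and was not called. COL21A1 had the largest positive fold of the class (log2 fold 0.18, limma adjusted p = 0.122), at 4.38 ± 0.06 and 4.56 ± 0.05 (SD, n = 3 each).

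Type IV chains are encoded by 6 genes that lie in head-to-head pairs, in each of which the genes are read away from each other. COL4A1 and COL4A2 supply the common basement membrane trimer, made of 2 alpha 1 chains and 1 alpha 2 chain. Their start regions are shown because the shift between these genes was the largest of the 3 type IV pairs and their windows overlap. The windows run from 250 bases before to 50 bases after each start (RefSeq, GRCh38.p14), are written 5′ to 3′ on the strand of each gene, and have the CCAAT box (CCAAT) and the GC box (GGGCGG) on either strand in capitals. COL4A1 lies at chr13:110307108-110307407 on the minus strand and COL4A2 at chr13:110307034-110307333 on the plus strand.
COL4A1: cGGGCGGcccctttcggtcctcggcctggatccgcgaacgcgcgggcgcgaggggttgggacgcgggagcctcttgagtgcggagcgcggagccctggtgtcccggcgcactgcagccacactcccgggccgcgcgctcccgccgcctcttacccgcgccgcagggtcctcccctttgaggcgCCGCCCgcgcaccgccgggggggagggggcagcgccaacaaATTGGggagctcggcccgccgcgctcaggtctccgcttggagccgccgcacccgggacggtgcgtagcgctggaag
COL4A2: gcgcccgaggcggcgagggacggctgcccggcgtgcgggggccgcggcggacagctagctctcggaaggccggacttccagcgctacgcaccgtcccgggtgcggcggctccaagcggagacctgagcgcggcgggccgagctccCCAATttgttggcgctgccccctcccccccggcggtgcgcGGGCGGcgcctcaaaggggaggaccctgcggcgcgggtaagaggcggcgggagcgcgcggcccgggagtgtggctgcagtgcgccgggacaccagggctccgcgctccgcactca
The starts are 127 bases apart, and the windows share 226 of their 300 bases, read in opposite directions. A CCAAT box and a GC box lie in the shared stretch: the CCAAT box begins 26 bases before the COL4A1 start and 105 bases before the COL4A2 start, and the GC box 67 and 65 bases before. A second GC box, 249 bases before the COL4A1 start, lies outside the window of COL4A2. Of 27305 promoter windows of the same length, 35.6% hold a CCAAT box and 43.8% a GC box, and 12 and 24 of the 40 member windows in the table do. Such a match is a description of letters and not a site of binding.

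COL4A2 fell and COL4A1 did not. COL4A2 read 7.19, 7.18 and 7.34 on the control arrays, against 6.64, 6.47 and 6.72 after S100A4 knockdown. All knockdown arrays lay below all control arrays (log2 fold -0.63, SE 0.08, limma adjusted p = 0.00392). COL4A1 read 6.78, 6.69 and 6.70 on the control arrays, against 7.04, 6.76 and 7.09 after S100A4 knockdown. Those groups overlapped through S100A4 shRNA replicate 2, and the gene was not called (log2 fold 0.24, 95% interval 0.024 to 0.46, limma adjusted p = 0.151). Without S100A4 shRNA replicate 2, COL4A1 was called higher (log2 fold 0.35, limma adjusted p = 0.0237). The within-array difference of COL4A1 minus COL4A2 was -0.42, -0.49 and -0.64 on the control arrays, against 0.40, 0.29 and 0.38 after S100A4 knockdown. The offset between these genes depends on their probes, so only its shift between the groups is read, which was 0.87 with no overlap (two-sided exact permutation p = 0.1, below which this design cannot go). COL4A1 stayed below the 95th percentile of the negative controls on every array, and COL4A2 was above it on 2 control arrays only. The authors' deposited table gave ratios of 1.06 for COL4A1 and 0.783 for COL4A2. Antisense transcripts of the locus, COL4A2-AS1 and COL4A2-AS2, were not called (log2 folds -0.18 and 0.049).

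The shifts of the other type IV pairs were smaller, though shifts were not tested against each other. COL4A3 and COL4A4, which with COL4A5 make the trimer of the kidney and lung alveolar basement membrane, start 419 bases apart and share 82 bases of their windows. They are printed in the same manner for comparison, COL4A3 at chr2:227164374-227164673 on the plus strand and COL4A4 at chr2:227164156-227164455 on the minus strand.
COL4A3: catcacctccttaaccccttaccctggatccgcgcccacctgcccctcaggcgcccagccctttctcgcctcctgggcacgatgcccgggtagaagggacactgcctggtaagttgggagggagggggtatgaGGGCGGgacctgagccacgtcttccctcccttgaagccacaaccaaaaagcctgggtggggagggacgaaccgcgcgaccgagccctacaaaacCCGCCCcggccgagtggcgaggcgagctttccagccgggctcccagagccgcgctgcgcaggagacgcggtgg
COL4A4: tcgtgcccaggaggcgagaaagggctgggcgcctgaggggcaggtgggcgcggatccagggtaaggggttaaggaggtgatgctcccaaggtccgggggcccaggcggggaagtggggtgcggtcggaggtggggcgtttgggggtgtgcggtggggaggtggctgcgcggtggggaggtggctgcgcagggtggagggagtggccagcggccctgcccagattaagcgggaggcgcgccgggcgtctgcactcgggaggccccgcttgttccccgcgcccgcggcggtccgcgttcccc
The COL4A3 window held GC boxes 117 and 23 bases before the start and no CCAAT box, and the COL4A4 window held neither. Both genes were not called (log2 folds -0.023 and 0.012), and their within-array difference changed by -0.035 (exact permutation p = 0.2). By the single window used per gene, COL4A5 and COL4A6 start 1416 bases apart, with windows that share 0 bases. Other starts were not examined. COL4A5 and COL4A6 were not called either (log2 folds 0.12 and -0.025), and their within-array difference rose by 0.14 with no overlap between groups (exact permutation p = 0.1).

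**Figure D4:**
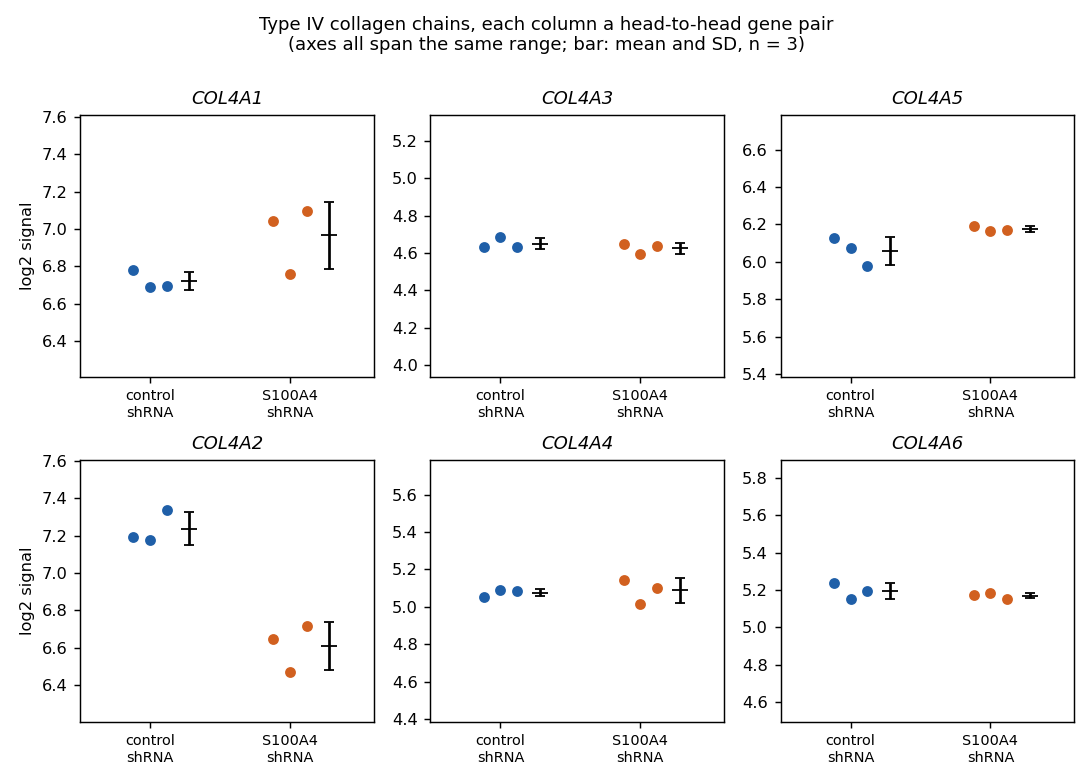
Log2 signal (y axis) of the 6 type IV chains on each array, with 1 head-to-head gene pair per column, blue points for control shRNA, orange points for S100A4 shRNA, and bars for the mean and SD (n = 3). All panels span the same range of log2 units; COL4A2 falls from 7.24 to 6.61 while COL4A1 goes from 6.72 to 6.97, and the other chains stay within 0.12 of their control mean.

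The remaining chains were not called. Type VI collagen forms beaded filaments around cells, and 0 of its 5 chains were called, with log2 folds from -0.12 for COL6A6 to 0.10 for COL6A1. Among 10 other chains, COL7A1, the anchoring fibril of the skin and of other squamous epithelia, was at 6.18 ± 0.01 and 6.16 ± 0.01 (SD, n = 3 each) with an interval of -0.14 to 0.10. COL18A1, whose C-terminal fragment is endostatin, was at 6.37 ± 0.04 and 6.42 ± 0.08 (SD, n = 3 each) and had an interval of -0.099 to 0.21. COL8A1, a network-forming chain of vessel walls, had the lowest fold of these (log2 fold -0.19, limma adjusted p = 0.107) at a level below the negative control median. COL10A1, COL13A1, COL15A1, COL23A1, COL25A1, COL28A1 and COL8A2 had log2 folds between -0.070 and 0.0015.

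Prolyl 4-hydroxylase alpha subunits carry the catalytic site of the collagen hydroxylase. P4HA3 read 6.70, 6.47 and 6.64 on the control arrays, against 8.85, 8.46 and 8.82 after S100A4 knockdown. No other member moved as far, and the groups did not overlap (log2 fold 2.11, SE 0.12, limma adjusted p = 0.00015). On the control arrays P4HA3 stayed below the 95th percentile of the negative controls and on all knockdown arrays it was above. A second cluster annotated to P4HA3 shifted in the same direction, from 5.27 ± 0.22 to 5.82 ± 0.11 (SD, n = 3 each), with no overlap between groups and no test of its own. In the authors' deposited table the ratio for P4HA3 was 2.10.

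P4HA2 read 7.09, 7.01 and 7.02 on the control arrays, against 7.39, 7.33 and 7.40 after S100A4 knockdown. The groups did not overlap and the change was small (log2 fold 0.33, SE 0.06, limma adjusted p = 0.0113). Without control replicate 3 its call was lost (limma adjusted p = 0.0544). P4HA1, the subunit most widely used across tissues, read 10.93, 10.70 and 10.79 on the control arrays, against 11.20, 11.06 and 11.06 after S100A4 knockdown. Those groups did not overlap either, but the gene just missed the threshold (log2 fold 0.30, 95% interval 0.11 to 0.48, limma adjusted p = 0.0507). It passed in 7 of 14 alternative settings, with limma adjusted p from 0.00691 to 0.0477. The within-array difference of P4HA1 minus P4HA2 changed by -0.034 (exact permutation p = 0.7), less than its SD of 0.07 in either group.

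Lysyl hydroxylases were not called. PLOD2, which hydroxylates the telopeptide lysines used for stable crosslinks, was far above the negative controls, at 14.2 ± 0.02 with control shRNA and 14.3 ± 0.16 with S100A4 shRNA (SD, n = 3 each). Its fold had an interval of -0.091 to 0.31. PLOD1, which acts on lysines in the helix, had a log2 fold of 0.15 (limma adjusted p = 0.458). PLOD3, which also attaches sugars to hydroxylysine, had a log2 fold of 0.20 (95% interval 0.045 to 0.36, limma adjusted p = 0.103). SERPINH1 was at 7.13 ± 0.06 and 7.01 ± 0.14 (SD, n = 3 each) and was not called.

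Of the 5 lysyl oxidases only LOXL2, which crosslinks collagen IV among other substrates, was called. LOXL2 read 10.00, 9.79 and 9.98 on the control arrays, against 10.79, 10.52 and 10.80 after S100A4 knockdown. Replicate 2 was again the lowest in each group, and the groups were clearly apart (log2 fold 0.78, SE 0.10, limma adjusted p = 0.00299). LOX itself was at 3.91 ± 0.04 and 3.87 ± 0.07 (SD, n = 3 each), below the negative control median. LOXL1, LOXL3 and LOXL4 had log2 folds of 0.078, -0.15 and -0.13. In all, 10 pairs of chains or enzymes were compared within arrays, 5 did not overlap between groups, and each of these 5 had an exact permutation p of 0.1 (0.2 after Benjamini-Hochberg adjustment over the 10 pairs), which this design cannot go below. Of these 5, all but COL4A1 minus COL4A2 hold a gene less than 1 log2 unit above the negative control median (COL1A2, COL4A6, COL8A1, COL8A2 or LOXL4), and their shifts are not read as changes in balance. After knockdown COL4A1 and COL4A2 also lay below the 95th percentile of the negative controls, so the shift in signal does not bound the shift in RNA.

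Genes that work with the collagens and their enzymes were compared next, in 5 lists by step of the pathway. Counts in each list stand beside 11.6% of all genes called, or 28.2% when only the upper 50% by mean were fitted. Folding and modification partners were not called, 0 of 17, including P4HB, the shared beta subunit of prolyl 4-hydroxylase (log2 fold 0.32, limma adjusted p = 0.165). The smallest p of that list belonged to PDIA3, a disulfide isomerase (log2 fold 0.20, limma adjusted p = 0.0711), and P3H1, a prolyl 3-hydroxylase (log2 fold 0.20, limma adjusted p = 0.136). Of 16 genes of secretion and procollagen processing, 4 rose, 0 fell and 12 were not called. BMP1, the proteinase that cuts the C-propeptide from procollagen and also activates LOX, rose from 7.45 ± 0.14 to 8.37 ± 0.27 (SD, n = 3 each; log2 fold 0.92, limma adjusted p = 0.00635). MIA3 and MIA2, receptors that load bulky procollagen into transport carriers, rose by 0.58 and 0.41, and the COPII coat subunit SEC23A rose by 0.40 (log2 folds).

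Of 10 basement membrane partners 4 rose, 0 fell and 6 were not called. The share called was 40%, and 9 of the 10 had a mean above the median gene. HSPG2, the heparan sulfate proteoglycan perlecan, rose from 8.14 ± 0.13 to 9.60 ± 0.22 (SD, n = 3 each; log2 fold 1.46, limma adjusted p = 0.000544). NID1, which links laminin to collagen IV, rose by 0.96, PXDN, the peroxidase that forms sulfilimine crosslinks in collagen IV, by 0.74, and LAMB1, a laminin chain, by 0.37 (log2 folds). NID1 and PXDN stayed below the 95th percentile of the negative controls on every array. COL4A2 fell on the same arrays.

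Of 12 receptors and uptake genes, 3 rose, 1 fell and 8 were not called. ITGA11, the integrin chain for fibrillar collagen, rose from 5.88 ± 0.11 to 8.13 ± 0.38 (SD, n = 3 each, log2 fold 2.25, limma adjusted p = 0.000453). ITGA2 rose by 0.94 and their partner ITGB1 by 0.47 (log2 folds). ITGA1, which prefers collagen IV, fell from 5.03 to 4.53 (log2 fold -0.51). Its mean of 4.78 was less than 1 log2 unit above the negative control median. Of 20 fibril partners, 1 rose, 3 fell and 16 were not called. FBN2, a fibrillin of elastic microfibrils, fell from 8.54 ± 0.10 to 7.37 ± 0.10 (SD, n = 3 each; log2 fold -1.17, limma adjusted p = 0.000321). THBS1 and FBN1 fell with log2 folds of -0.47 and -0.45, and MATN2, an adaptor protein of matrix filaments, rose by 0.39 (log2 fold). Signal of FBN1 was below the 95th percentile of the negative controls on every array. In all 5 lists together 16 of 75 genes were called, 12 higher and 4 lower, beside 11.6% of all genes. When only genes in the upper 50% by mean signal were fitted, 18 of the 47 list genes and 10 of the 21 members left in the fit were called, beside 28.2% of all genes fitted.

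**Figure D5:**
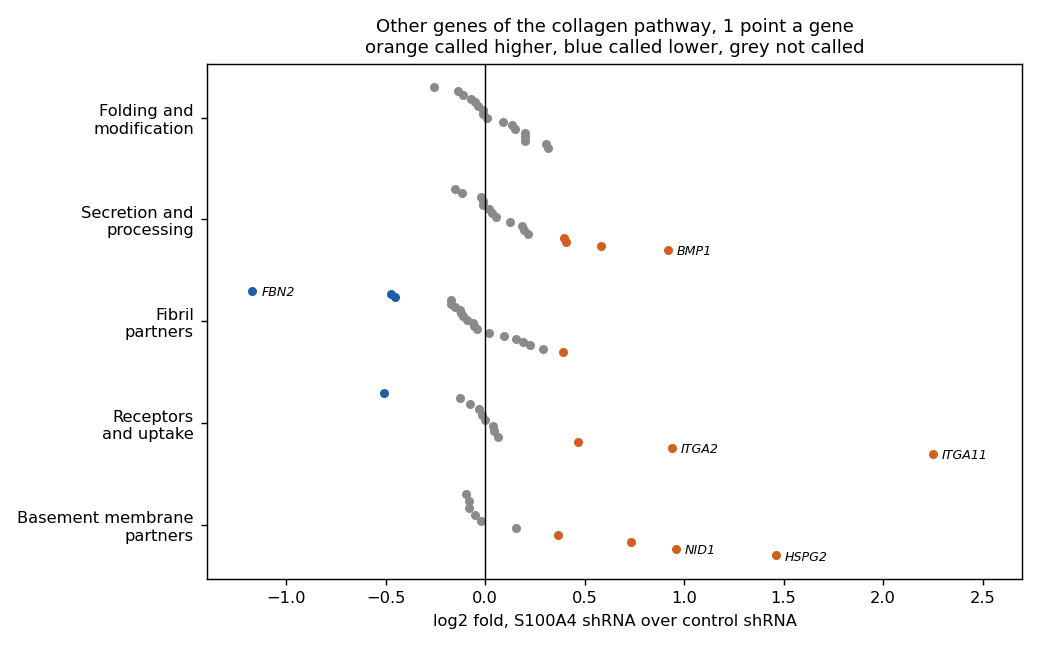
Log2 fold of S100A4 shRNA over control shRNA (x axis) for the 75 other genes of the collagen pathway, 1 point per gene, in 5 lists (y axis; the vertical offset within a list only separates points). Called genes are orange (higher) or blue (lower); ITGA11 at 2.25 and HSPG2 at 1.46 lie farthest to the right, FBN2 at -1.17 farthest to the left, and all 17 folding genes are grey.

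The array's positive control probe sets, which read exons of housekeeping genes, were lower on the knockdown arrays, with medians of 13.5 ± 0.06 and 13.3 ± 0.13 (SD, n = 3 each), so they differed by -0.23 (two-sided exact permutation p = 0.1). When each array was scaled to these controls, the median log2 fold of all genes moved from -0.034 to 0.19 and 93.9% of called genes were higher, against 52.5% before. Under that scaling 15 of 54 members were called, 13 higher and 2 lower, beside 5153 of 25141 genes. COL11A1 lost its call (log2 fold -0.15, limma adjusted p = 0.282), while COL12A1 and COL4A2 were still called lower, with log2 folds of -0.65 and -0.40. Higher calls were added for P4HA1, COL4A1, COL4A5, COL6A1, COL21A1, PLOD1 and PLOD3, whose log2 folds of 0.33 to 0.53 compare with the shifted median of 0.19.

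The authors' deposited table, which summarises the same arrays in another way, gave smaller folds. All 9 called members had the same direction there and a smaller log2 fold, and all 9 had an unadjusted p under 0.05 in the authors' deposited table. After Benjamini-Hochberg adjustment of the authors' p-values over the same genes, 3 of the 54 members were called, against 2.12% of all genes. These were P4HA3, COL12A1 and COL11A1, all among the 9. For COL1A1 the ratio in the authors' deposited table was 1.18, for COL5A1 1.15, for COL5A2 1.14 and for LOXL2 1.25. Of the 45 members not called here, 39 had a negative log2 difference in the authors' deposited table. The median log2 difference of all 25141 genes was also negative there, at -0.057.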

How the data were processed

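Per the labels' protocols, total RNA was extracted with Trizol and labelled with biotin for whole-transcript arrays. The value table deposited by the authors holds log2 signals for 70523 features on 6 arrays, and the sources used here do not name the program behind it. The submitters' processing notes name Partek 6.0. Per the file headers, a deposited workbook gives log2 group means, unadjusted p-values and a linear ratio per transcript cluster. Its levels correlate with those of the value table across genes at r = 0.78, so it is another summarisation, used here for symbols and as an alternative.

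Of 26831 clusters with a symbol, 22675 were matched to RefSeq (GRCh38.p14) by accession, 2135 by current symbol and 976 by older symbol; 1 with a date for a symbol was left out. Where a gene had several clusters, that with the highest average signal was used, and no filter on signal was set. Groups and replicates follow the labels. Array pairs held at most 0.0278% identical values. Differences were tested with limma 3.58.1 (R 4.3.3), two-sided, adjusted over 25141 genes. The fit was tested on simulated data. The number of arrays limits the precision. The members, pathway lists and pairs were chosen with earlier results of these data known. All members could be named; of each pathway list, up to 4 called genes with the smallest p, or 2 where none was called. P4HB and COL4A2-AS1 and COL4A2-AS2 were named after their values were seen. Alternatives were a low-signal filter, quantile normalization, scaling to housekeeping controls, array weights, another variance model, a replicate block, cluster means, the workbook's values, a fold requirement and leaving out each array.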

Additional observations from a re-analysis of the deposited data

How the results depend on the processing

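Scaling to the positive housekeeping controls raised the calls to 5153 of all genes, 15 members and 29 pathway genes, from 2910, 9 and 16. The authors' deposited table, a different summarisation without values per array, gave 532, 3 and 8. Requiring at least a 1.5-fold change left 760 of all genes and 7 pathway genes. Leaving out 1 array at a time gave 1539 to 2583 of all genes, 7 to 10 members and 13 to 16 pathway genes; without control replicate 2 or 3 or S100A4 shRNA replicate 1 or 3 the count over all genes was 1816, 1539, 1801 and 1767. Fewer arrays enter these fits. Without the lower 50% of genes by mean, the calls were 10 of 21 members and 18 of 47 pathway genes, beside 3549 of 12570 genes (28.2%). Members and all genes called were 11 and 3636 with quantile normalization, 12 and 3982 with array weights, 10 and 3008 with another variance model, and 9 and 2913 with cluster means. Same-numbered arrays were not treated as pairs. Correlations of their deviations were 0.0835, 0.1657 and -0.0087, and not every array correlated best with its own number. With 3 arrays per group these values cannot settle whether the arrays were paired. A replicate block gave 10 members, 2883 of all genes and 18 pathway genes. In the authors' deposited table some shifts between paired genes, taken from group means, were smaller, at 0.36 against 0.69 for COL1A1 minus COL1A2, 0.44 against 0.87 for COL4A1 minus COL4A2 and 0.48 against 0.91 for LOXL2 minus LOXL4, and 4 pairs changed sign, at 0.089 for COL8A1 minus COL8A2, 0.11 for P4HA1 minus P4HA2, -0.15 for PLOD1 minus PLOD2 and -0.020 for COL6A1 minus COL6A2; the cause was not tested. None of the 9 called members changed direction in these alternatives. Of the uncalled members, 39 changed sign in at least 1 of them, but only 12 outside the housekeeping scaling and the authors' deposited table. Signal over background is a further limit: 31 members lay less than 1 log2 unit above the negative control median, so a change in their RNA may not show in their signal.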

Other observations

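COL26A1, which the deposited annotation lists under an older name and which is therefore not among the 42 chains, was not called (log2 fold -0.090, limma adjusted p = 0.592). Clusters annotated to antisense transcripts and pseudogenes of the family were not called either, among them COL5A1-AS1, COL18A1-AS1, COL18A1-AS2, LOXL1-AS1 and P4HA2-AS1, and the type VI pseudogenes COL6A4P1 and COL6A4P2, with log2 folds between -0.21 and 0.12. A second cluster annotated to COL27A1 read 5.46, 5.38 and 4.96 on the control arrays and 5.01, 4.92 and 5.01 on the S100A4 shRNA arrays, with control replicate 3 apart from the other two and the groups overlapping. S100A4 shRNA replicate 2 was the lowest of its group for 15 of the 21 members above the median gene, and control replicate 2 for 12 of 21.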
